A study of Mus musculus with 36 samples.

Results

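The SSB landscape of bone marrow was described from 2 libraries of single-strand break (SSB) positions, 1 from each of 2 male C57BL/6J mice aged 24 months. They were the 2 SSB libraries whose tissue label was bone marrow, of 12 SSB libraries and of 36 samples with labels in all. The comparison groups were the SSB libraries of brain, heart, liver, sperm and PBMCs (mononuclear cells of peripheral blood), with 2 mice of the same strain, sex and age for each tissue, so 10 libraries. No group carried a genotype change or a treatment. Red blood cells were lysed before the bone marrow was frozen, so mature red cells were largely removed and the remaining marrow was a mixture of developing blood cells. DNA from sperm was purified with a different kit from that used for the other 5 tissues. AP sites, which are nucleotides that have lost their base, were mapped in the same 12 DNA samples and served as a second readout. RNA files were not analysed here, so the tissue label could not be checked against expressed markers, and lists of cell type genes below describe breaks in those genes only.

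An SSB is an interruption of 1 strand of the double helix. Such breaks arise as intermediates of base excision repair, when topoisomerases relax DNA, and from attack by reactive oxygen species, and most are sealed rapidly by a pathway that uses Parp1, Xrcc1 and DNA ligase. Bone marrow is the site of blood formation in adult mice, where stem cells give rise to dividing precursors of red cells, granulocytes, monocytes, B cells and megakaryocytes. Promoters rich in CpG dinucleotides, called CpG islands, mark the 5' ends of most widely used genes and are largely free of nucleosomes when active.

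The bone marrow libraries held 458672 and 236000 SSB positions, within the range of 225011 to 1041983 over the 12 libraries. Each position was a single nucleotide on 1 strand and was counted once. Of the positions of the first bone marrow library 437 were also in the other, which is 0.185% of the smaller library, so the libraries sampled a sparse set of breaks and single nucleotides could not be compared. AP libraries held 460719 to 963258 positions.

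SSBs of bone marrow were placed closer to gene starts and in more gene-dense DNA than those of any other tissue. Positions within 1 kb of the 5' end of a protein-coding gene made up 4.56% and 3.95% of the bone marrow libraries. In the other 10 libraries this share ran from 2.43% to 3.40%, with a median of 3.09%. Both bone marrow libraries therefore lay above all others, at 1.46 times their mean. For shares, here and below, such a ratio was taken between means on the log2 scale. By tissue, the share was 4.25% ± 0.434 in bone marrow, 3.34% ± 0.0793 in heart, 3.31% ± 0.0962 in liver, 3.09% ± 0.121 in brain, 2.53% ± 0.0169 in PBMCs and 2.44% ± 0.0152 in sperm (mean ± SD, n = 2 mice each). PBMCs, the other blood cell sample, thus stood next to sperm at the low end of the order, and heart and liver differed by less than their spread. In an exact permutation test over the 66 choices of 2 libraries of 12, two-sided, the share differed between bone marrow and the other tissues with p = 0.0152, the smallest this design can give, and an adjusted p of 0.0208 over 11 measures. Without PBMCs the share no longer passed (exact p = 0.0444, adjusted p = 0.0611), with a log2 difference of 0.490 against 0.541 in the full set. The test treats the 10 other libraries as exchangeable although they are 5 pairs.

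**Figure D1:**
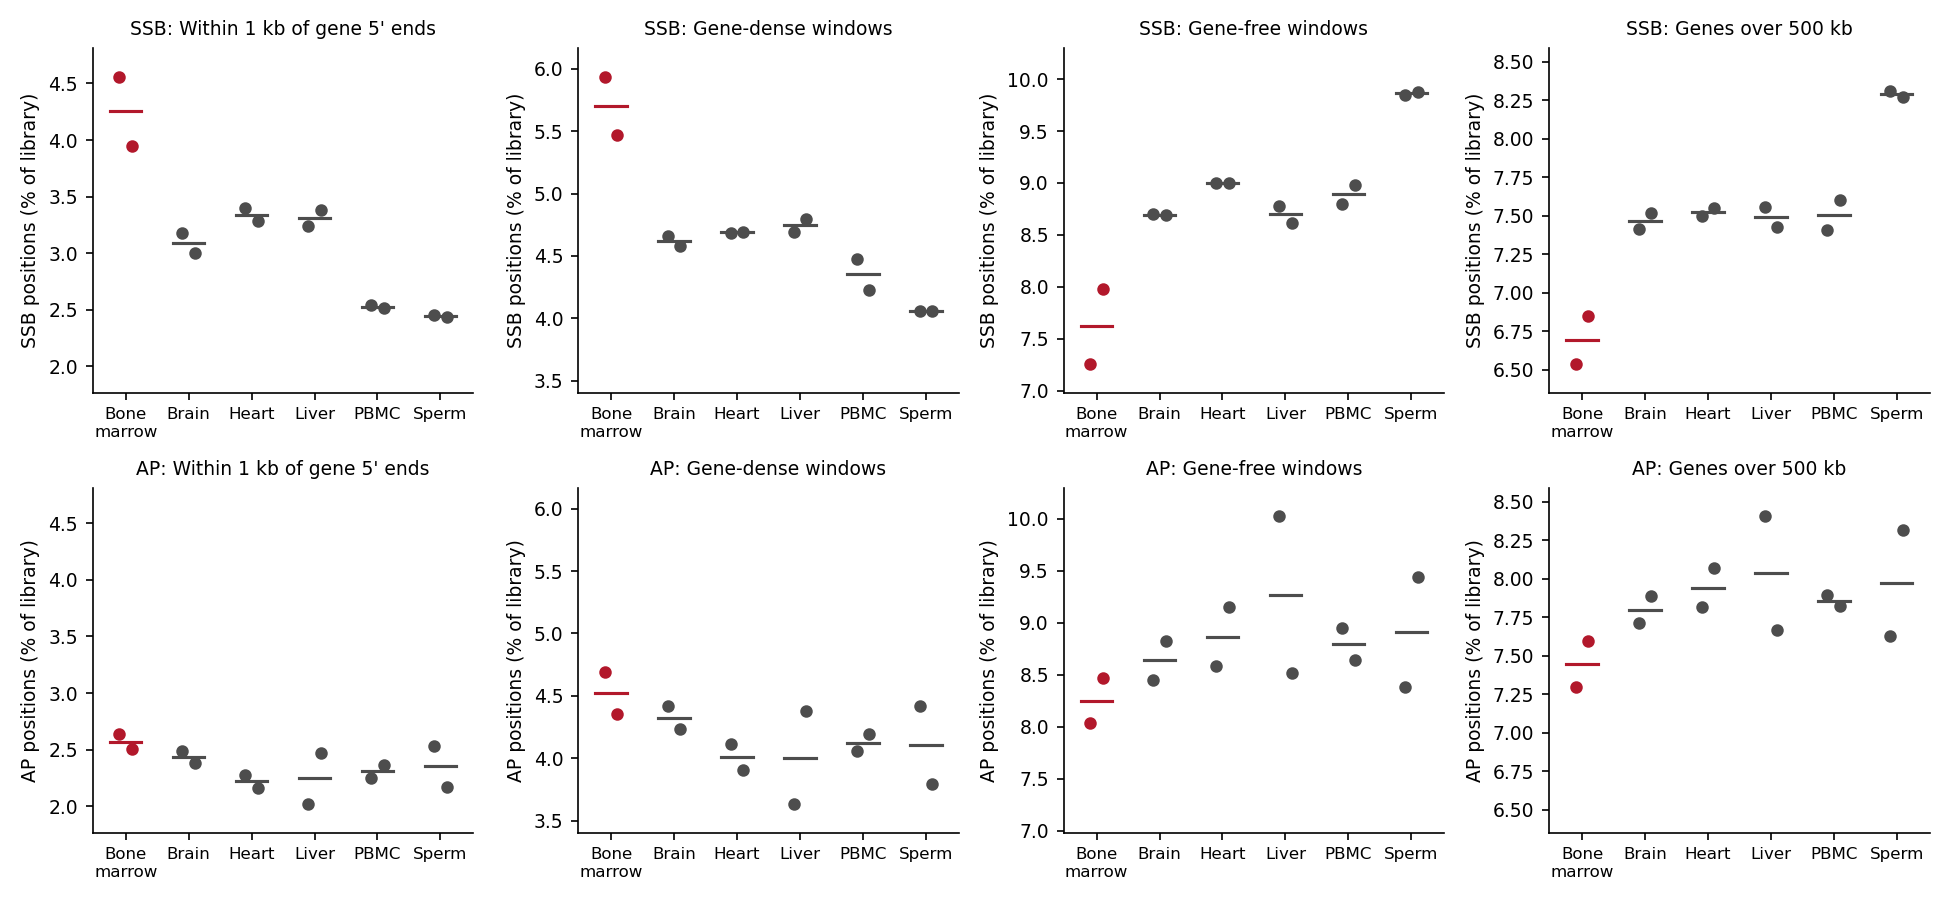
Share of SSB positions (top row) and AP positions (bottom row) in 4 classes of region, in percent of each library. Each point is 1 library, the short line is the mean of the 2 libraries of a tissue, bone marrow is in red, and the vertical axis does not start at 0 but is the same for both rows of a column. In the top row both bone marrow points lie outside the range of the 10 others in every panel, with 4.56% and 3.95% at gene 5' ends against at most 3.40%.

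The shift towards genes was seen in 8 of the 11 measures, each with exact p = 0.0152, the smallest possible, and adjusted p = 0.0208. These measures overlap or mirror each other, so they are not 8 separate observations. The adjusted p is this low because they reached the smallest p together. Within the spans of 35961 RefSeq genes lay 63.5% and 62.5% of bone marrow SSBs, against 59.8% to 61.4% in the others. For protein-coding genes the shares were 54.97% and 54.07%, against 51.1% to 52.8%. Both differences were small, at 1.03 and 1.04 times the mean of the others, but neither range overlapped. Gene 3' ends, taken as 1 kb on each side, held 2.48% and 2.41% of bone marrow SSBs against 2.02% to 2.23%, which is 1.14 times the mean of the others. Thus the excess was larger at 5' ends than at 3' ends.

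Gene density separated the tissues in the same direction. The 735 windows of 100 kb with at least 5 protein-coding gene starts held 5.94% and 5.47% of bone marrow SSBs. In counts per window a start was the lower coordinate of the gene span, whichever its strand. For genes on the minus strand this is the 3' end. The other libraries had 4.05% to 4.79% there, with a median of 4.62%. Bone marrow was 1.27 times the mean of the others in these windows. In the 5027 windows that no RefSeq gene overlaps the order was inverted, with 7.26% and 7.98% in bone marrow and 8.62% to 9.88% elsewhere, or 0.844 times the mean.

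Gene length gave the matching picture. Genes shorter than 10 kb held 6.44% and 6.04% of bone marrow SSBs against 5.06% to 5.62% in the other libraries. The 233 genes longer than 500 kb, many of which encode neuronal adhesion molecules and channels, held 6.54% and 6.85% against 7.41% to 8.31%. Short genes were thus at 1.15 times and long genes at 0.875 times the mean of the other tissues.

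The remaining 3 measures did not pass. Chromosome X held 1.57% and 1.70% of bone marrow SSBs, inside the range of 1.32% to 1.83% in the others (exact p = 0.848). The low end of that range was the sperm libraries at 1.32% and 1.38%, and the other 8 lay at 1.73% to 1.83%, above bone marrow. Chromosome Y held 0.0831% and 0.101% against 0.0845% to 0.170% (exact p = 0.152, adjusted p = 0.167). Without sperm, bone marrow was lower on both chromosomes and passed (exact p = 0.0222 and adjusted p = 0.0272 for X, exact p = 0.0444 and adjusted p = 0.0489 for Y). Of the SSBs inside protein-coding genes, 52.5% and 53.5% in bone marrow were recorded on the annotated strand of the gene, against 53.1% to 55.7% (exact p = 0.121, adjusted p = 0.148).

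The excess at 5' ends was largest in the 250 bp on each side of the gene start. Densities are given as LPKM, the number of positions per kb of sequence and per 1000000 positions of the library. In the 250 bp upstream of 5' ends, SSB density was 2.18 and 1.802 LPKM in bone marrow and 0.794 to 1.40 LPKM in the others, with a median of 1.22 LPKM. In the first 250 bp of the transcribed side it was 2.18 and 1.77 LPKM against 0.884 to 1.38 LPKM. From 250 to 500 bp on that side it was still 1.71 and 1.46 LPKM against 0.872 to 1.25 LPKM. From 10 to 20 kb upstream, bone marrow had 0.529 and 0.496 LPKM against 0.417 to 0.464 LPKM, so the surroundings of genes were also higher but by much less. Divided by its own flank, the density in the central 250 bp on each side was 3.92 and 3.39 in bone marrow, against 1.87 to 2.84 elsewhere (exact p = 0.0152, adjusted p = 0.0238 over 11 added measures). The same ratio at 3' ends, 1.15 and 1.22 against 1.17 to 1.28, did not pass (exact p = 0.167, adjusted p = 0.204).

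**Figure D2:**
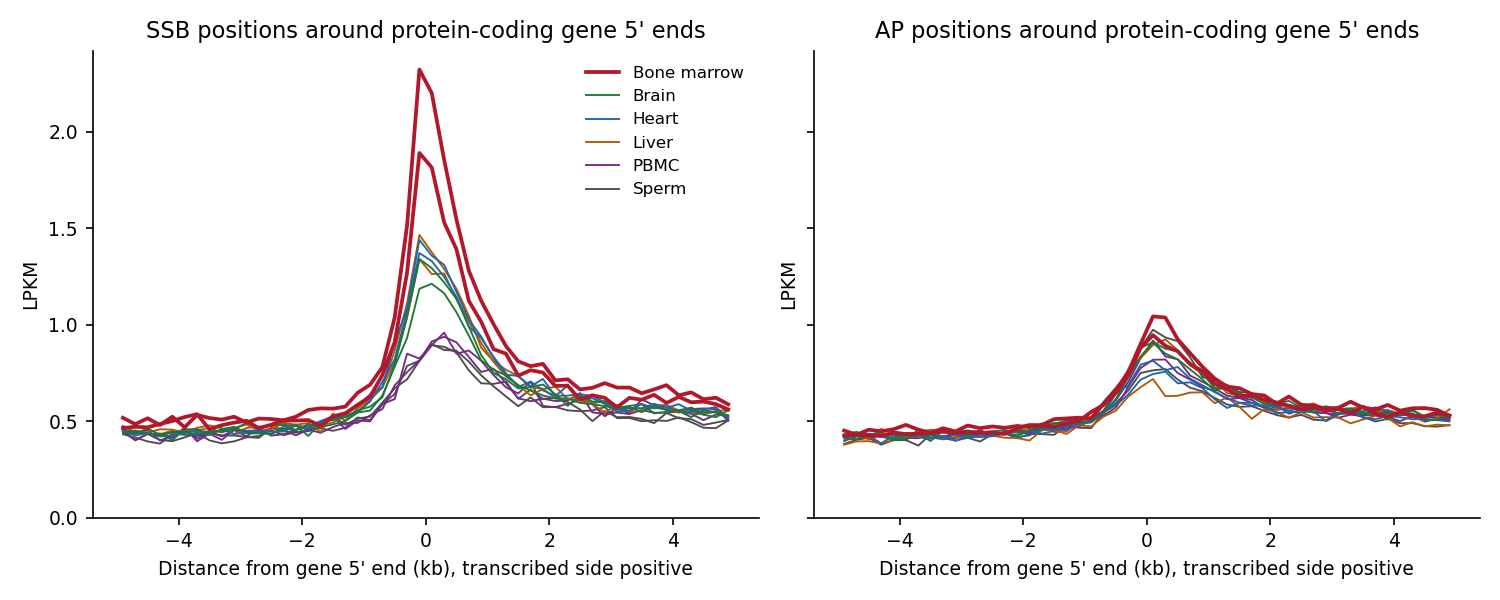
Density of SSB positions (left) and AP positions (right) in 200 bp bins around the 5' ends of protein-coding genes, in LPKM against the distance in kb with the transcribed side positive. Each line is 1 library and bone marrow is in red. The 2 bone marrow SSB lines peak at 2.32 and 1.89 LPKM just upstream of the gene start, above the 10 others, whereas the AP lines of all tissues lie close together.

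Promoters differed by their CpG content. The 21238 promoter sequences of RefSeq, each 300 bases from 250 before to 50 after the gene start (GRCm38.p6), were divided into 6309 CpG-rich, 5515 intermediate and 9414 CpG-poor sequences. CpG-rich promoters had 3.96 and 3.02 LPKM in bone marrow against 0.906 to 2.04 LPKM in the others. Intermediate promoters had 3.24 and 2.63 LPKM against 1.001 to 2.03 LPKM. CpG-poor promoters had 1.13 and 1.10 LPKM against 0.755 to 0.946 LPKM. Bone marrow lay above all other libraries in each class, and the distance was largest on the CpG-rich side, at 2.34, 1.90 and 1.29 times the mean of the others (exact p = 0.0152 and adjusted p = 0.0238 for each). Since CpG-rich promoters are also rich in G and C, the classes were compared again among promoters with 55% to 65% G and C. There, CpG-rich promoters had 5.11 and 3.74 LPKM in bone marrow against 1.11 to 2.72 LPKM, and CpG-poor promoters had 2.04 and 1.79 LPKM against 1.05 to 1.55 LPKM. Within this band G and C content was not held fixed, with a median of 60.7% in the CpG-rich and 57.7% in the CpG-poor promoters.

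**Figure D3:**
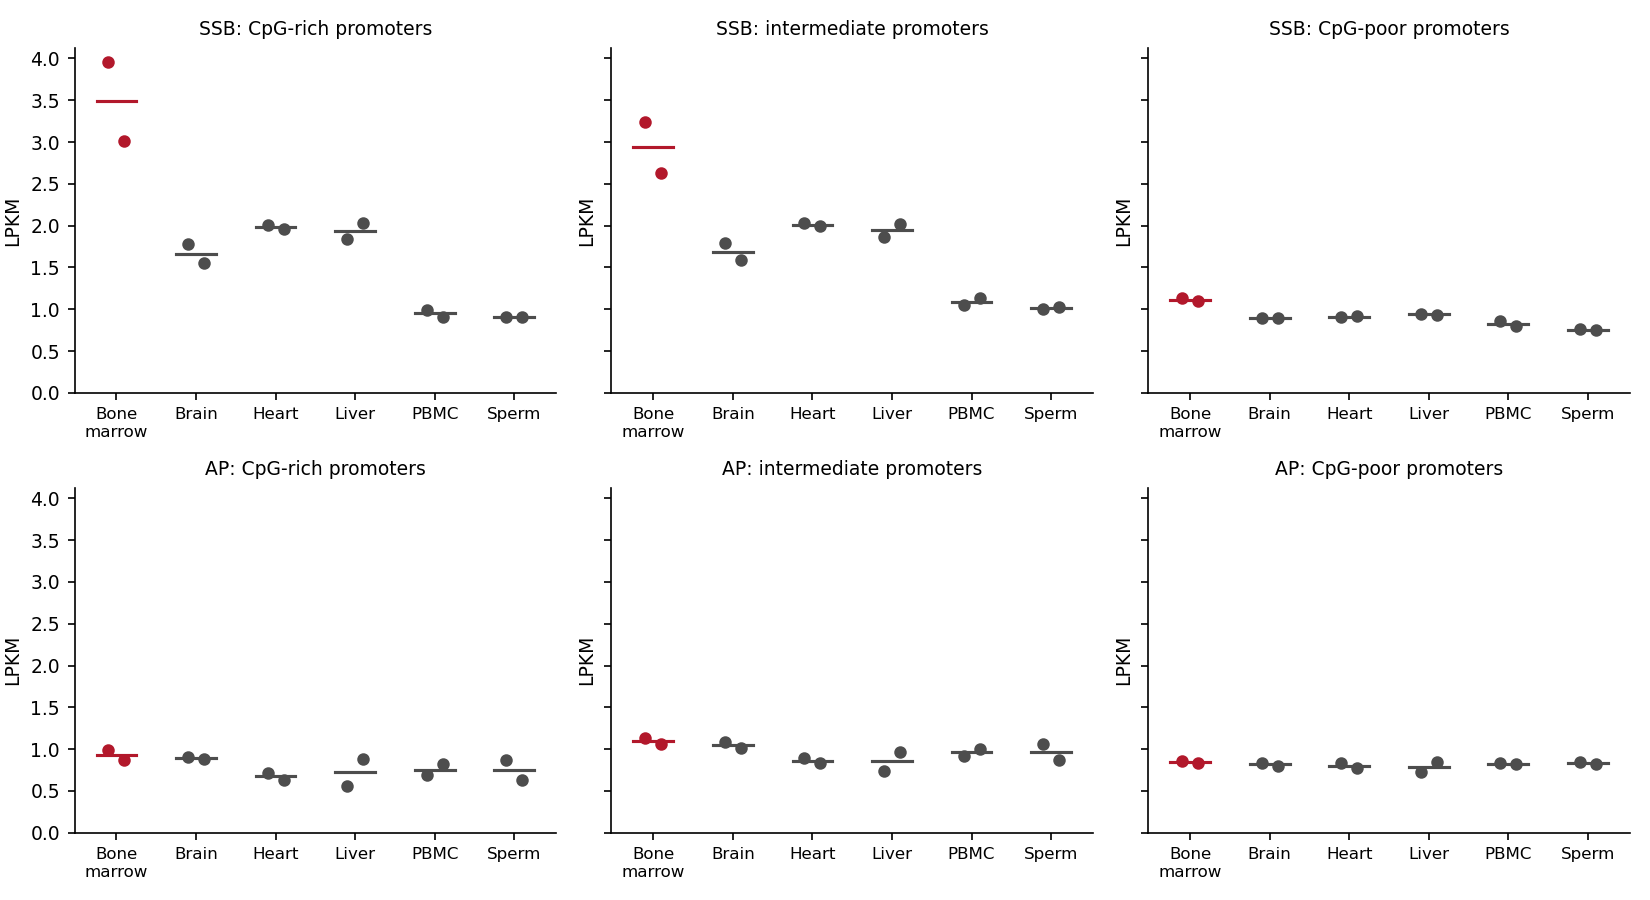
Density of SSB positions (top) and AP positions (bottom) in 3 classes of RefSeq promoter, in LPKM. Points are libraries, short lines are the means of the 2 libraries of a tissue, and bone marrow is in red. Bone marrow SSBs reach 3.96 and 3.02 LPKM in CpG-rich promoters, where no other library exceeds 2.04 LPKM.

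Individual promoters carried few positions. Of the 21238 promoters, 67 had at least 2 SSB positions in each bone marrow library. The 4 with the most positions in proportion to the library are shown to give the sequence in which bone marrow SSBs lay, with each nucleotide that carried a bone marrow SSB on either strand in capitals. They were chosen for these values, which are therefore a description. Each is the RefSeq strand of the gene, 5' to 3'. The promoter of Hjurp, the chaperone that loads the centromeric histone, spans chr1:88277530-88277829 on the minus strand. That of Slc39a13, a zinc transporter, spans chr2:91070266-91070565 on the minus strand. Tmem169, a membrane protein, starts at chr1:72284123-72284422 on the plus strand, and Med22, a subunit of the Mediator complex, at chr2:26910593-26910892 on the minus strand.
Hjurp: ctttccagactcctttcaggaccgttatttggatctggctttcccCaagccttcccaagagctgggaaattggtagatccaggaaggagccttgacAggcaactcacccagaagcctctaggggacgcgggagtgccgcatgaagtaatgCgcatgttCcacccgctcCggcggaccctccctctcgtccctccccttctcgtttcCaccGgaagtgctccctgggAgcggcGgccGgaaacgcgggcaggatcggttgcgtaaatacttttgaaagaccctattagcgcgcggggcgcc
Slc39a13: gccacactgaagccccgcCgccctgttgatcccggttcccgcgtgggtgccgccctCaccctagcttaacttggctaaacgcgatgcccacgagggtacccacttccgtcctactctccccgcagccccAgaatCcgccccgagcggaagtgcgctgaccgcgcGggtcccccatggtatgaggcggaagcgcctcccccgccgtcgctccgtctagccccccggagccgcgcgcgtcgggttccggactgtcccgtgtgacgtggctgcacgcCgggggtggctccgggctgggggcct
Tmem169: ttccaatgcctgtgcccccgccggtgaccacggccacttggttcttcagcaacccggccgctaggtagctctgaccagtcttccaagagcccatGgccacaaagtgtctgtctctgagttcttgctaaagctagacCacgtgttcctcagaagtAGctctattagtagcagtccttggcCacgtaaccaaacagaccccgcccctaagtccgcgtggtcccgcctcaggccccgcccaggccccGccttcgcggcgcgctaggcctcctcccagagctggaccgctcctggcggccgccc
Med22: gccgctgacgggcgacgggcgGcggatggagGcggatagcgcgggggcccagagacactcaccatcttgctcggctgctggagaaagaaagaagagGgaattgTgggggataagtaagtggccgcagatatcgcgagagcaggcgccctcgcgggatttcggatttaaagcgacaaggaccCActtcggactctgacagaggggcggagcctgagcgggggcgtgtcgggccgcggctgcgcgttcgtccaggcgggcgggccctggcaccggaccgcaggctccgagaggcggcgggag

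Hjurp had 7 and 3 SSB positions in the bone marrow libraries and 21 in the other libraries combined, spread over 7 of them. Slc39a13 had 4 and 3 positions in bone marrow and 1 in the 10 others. Tmem169 had 2 and 4 against 3, and Med22 had 5 and 2 against 2. In bone marrow these positions covered 10, 6, 6 and 6 nucleotides in Hjurp, Slc39a13, Tmem169 and Med22. Since a nucleotide on 1 strand was counted once per library, the capitals cannot show whether breaks recurred there within a library. The 4 sequences held 59.7%, 71.7%, 63.3% and 68.0% G and C, with 22, 36, 20 and 35 CpG dinucleotides, and 3 of them fell in the CpG-rich class, to which 29.7% of all promoters belong. Each gene is only weakly sampled at its start. When positions within 1 kb of the 5' end were tested gene by gene with edgeR, 0 of 15579 genes passed. An unadjusted p under 0.05 was reached by 1439 genes, 1429 of them higher in bone marrow and 10 lower. This fit had no TMM, so the larger 5' end share of bone marrow stayed in every gene, with a median log2 of 0.79. The split of 1429 to 10 therefore largely repeats that share. DESeq2, which scales by its own size factors, had a median log2 of 0.07. It gave 11 genes at that level, 8 higher and 3 lower, and also 0 after adjustment. Both bone marrow libraries lay above all 10 others at 4.31% of these 5' ends and below all of them at 0.0514%.

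Of 4 bases tested around the SSBs of promoters, 1 passed. Only these 4 of the combinations of base and place were tested, after the data were seen, so the adjusted p does not cover that choice. The mix of promoter classes was not held fixed. At the nucleotide 2 bases before the recorded position, T was found at 7.66% and 8.10% of bone marrow SSBs in promoters, against 10.9% to 14.5% in the other libraries (exact p = 0.0152, adjusted p = 0.0238). G at the same place had 39.1% and 39.1% against 28.1% to 40.8% (adjusted p = 0.0833). C directly before the position, the most frequent base there, had 56.0% and 57.0% against 47.7% to 58.9% (adjusted p = 0.682). All promoter bases combined held 21.8% T and 28.6% G.

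Windows of 100 kb, which do not depend on gene models, were then tested 1 by 1. With edgeR's quasi-likelihood test of bone marrow against the mean of the 5 other tissues, 310 of 23732 windows passed at an adjusted p under 0.05, which is 1.31%. Of these, 292 were higher and 18 lower in bone marrow, or 1.23% and 0.0758% of the windows. Among the higher windows 271, or 92.8%, contained the lower coordinate of a protein-coding gene, counted here as its start. This held for 43.5% of all windows tested and for 3 of the 18 lower ones. Both bone marrow libraries lay above all 10 others in 3.51% of the windows and below all of them in 4.07%. The higher windows lay on 20 chromosomes, with 37 on chromosome 11, 29 on chromosome 17 and 26 on each of chromosomes 7 and 8.

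The share of windows that passed rose with the number of gene starts in them. None of the 3310 windows without a RefSeq gene was higher in bone marrow and 4 were lower. Of windows with 1 start 0.612% were higher, of those with 2 starts 2.17%, of those with 3 to 4 starts 4.82% and of those with 5 to 9 starts 12.6%. Of the 38 windows with 10 or more starts, 14 were higher, or 36.8%. The median log2 fold change moved along with this, from −0.21 in windows without a gene to 0.06 with 1 start, 0.39 with 5 to 9 starts and 0.59 with 10 or more, against 0.00 over all windows. A gene-free window had a mean of 20.8 and 22.8 PPM, positions per 1000000 positions of the library, in bone marrow and 24.6 to 28.3 in the others. Windows with 10 or more starts had 113 and 106 PPM against 68.0 to 85.3. The number of positions per window rises with gene starts in all tissues, so the power of the test rises too and the percentages are not free of that.

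**Figure D4:**
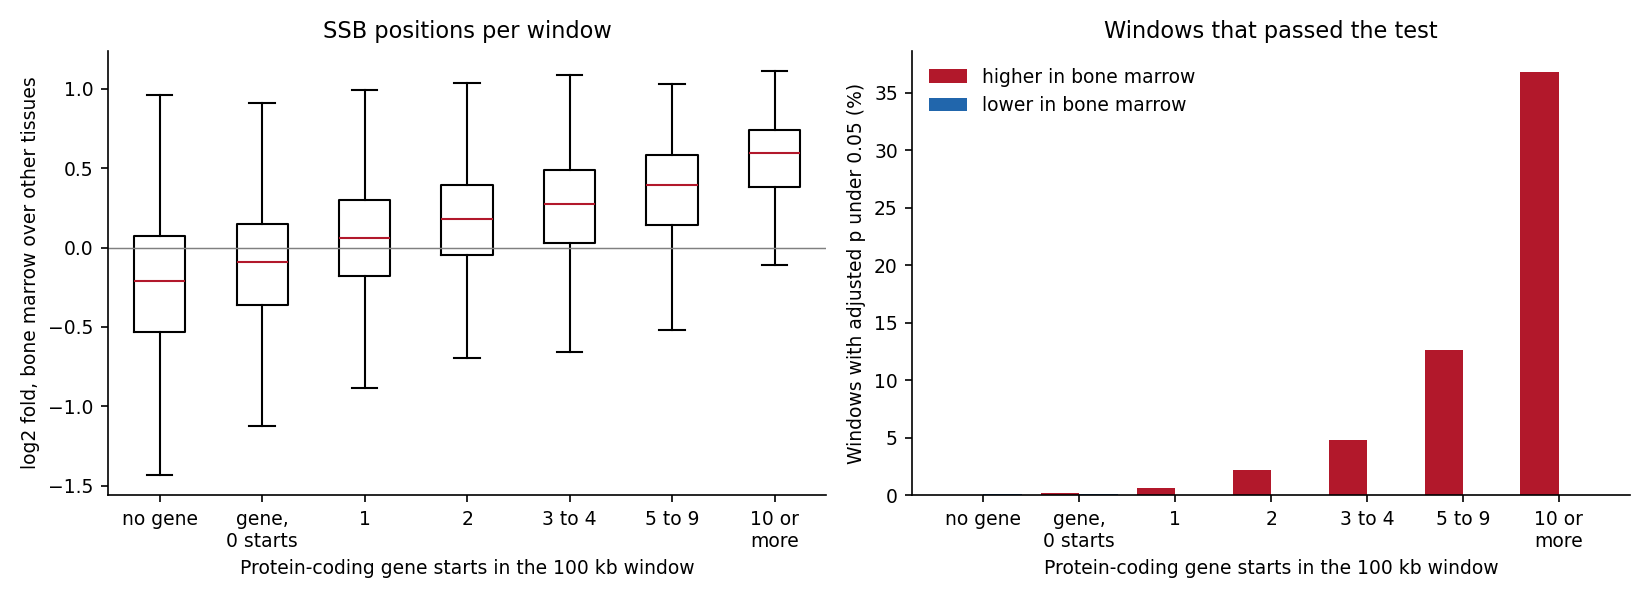
Left, log2 fold change of SSB positions per 100 kb window, bone marrow over the mean of the other tissues, by the number of protein-coding gene starts in the window. A start is the lower coordinate of the gene, on either strand. Boxes span the quartiles with the median in red, and whiskers reach the last window within 1.5 times the box height. Right, percent of windows with an adjusted p under 0.05, which reaches 36.8% higher in bone marrow for windows with 10 or more starts, while lower windows stay at or under 0.121% in each class with at most 1 start and at 0 in the rest.

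The window with the smallest p was chr17:39800001-39900000, which holds the ribosomal RNA copies annotated as Rn18s-rs5 and AY036118. It had 1055 and 1174 PPM in bone marrow and 386 to 850 in the others, a log2 fold change of 0.95 ± 0.0787 (SE). Ribosomal RNA genes are repeated in the genome, so its reads may come from other copies.

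The next windows each held several genes. At chr8:70700001-70800000, which holds Jund, a subunit of the AP-1 transcription factor, along with Pik3r2, Rab3a, Mast3 and Ifi30, bone marrow had 192 and 195 PPM against 72.0 to 130 (log2 1.02, edgeR adjusted p = 2.49e-06). A window with Cyc1 of the respiratory chain, Sharpin, Maf1, Exosc4 and Gpaa1, at chr15:76300001-76400000, had 159 and 140 against 52.3 to 114. The window of Fmnl3, Tmbim6 and Prpf40b at chr15:99300001-99400000 had 150 and 114 against 45.3 to 92.1. In each of these the bone marrow libraries were above all others.

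The window chr2:158100001-158200000 overlaps Tgm2, which encodes transglutaminase 2, and D630003M21Rik. In it bone marrow had 137 and 148 PPM against 58.9 to 84.4. The window of the splicing factor gene Srsf10 with Pnrc2, Myom3 and Cnr2, chr4:135800001-135900000, had 113 and 76.3 against 26.7 to 53.8. That of Sun2, Gtpbp1, Dnal4 and Nptxr, chr15:79700001-79800000, had 164 and 148 against 46.7 to 109. A cluster of 10 histone genes, among them H2ac18, H2bc18, H3c13 and H4c14, together with Fcgr1 lies in chr3:96200001-96300000, which had 107 and 102 against 26.7 to 76.2. With positions near 5' ends left out, the windows of Cyc1 (adjusted p = 0.142) and of the histone cluster (adjusted p = 0.0734) no longer passed, and the other 6 did.

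The 8 lower windows with the smallest p were poor in genes. Of these, 4 held no protein-coding gene and lay on chromosomes 4, 8 and 18, and the others lay within or across Ptprd, Plcl1, Serpinb8 and Itga1. The window inside Ptprd, chr4:76600001-76700000, had 6.54 and 12.7 PPM in bone marrow against 26.7 to 75.4. That of Plcl1, chr1:55400001-55500000, had 17.4 and 12.7 against 34.7 to 64.97. These windows rest on 8 or fewer bone marrow positions per library.

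Among single genes, most that passed were lower in bone marrow and long. With the same edgeR test 73 of 38486 genes passed, or 0.19%, of which 64 were lower and 9 higher (0.166% and 0.0234%). The 64 lower genes had a median length of 906400 bp, 48 of them were longer than 500 kb, and 62 were protein-coding, while 0.613% of all genes tested were longer than 500 kb. The 9 higher genes had lengths of 7606 to 53992 bp. Long genes collect more positions, so a given fold change passes the test more easily in them. In protein-coding genes over 500 kb, pooled, SSB density was 0.330 and 0.346 LPKM in bone marrow against 0.375 to 0.419 LPKM in the others, and in those under 10 kb it was 1.12 and 1.02 LPKM against 0.770 to 0.914 LPKM. The split of calls depended on the scaling: TMM, used here, placed the median gene at a log2 fold change of 0.04, and with all positions as the library size, which placed it at 0.16, 8 genes were lower and 21 higher.

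**Figure D5:**
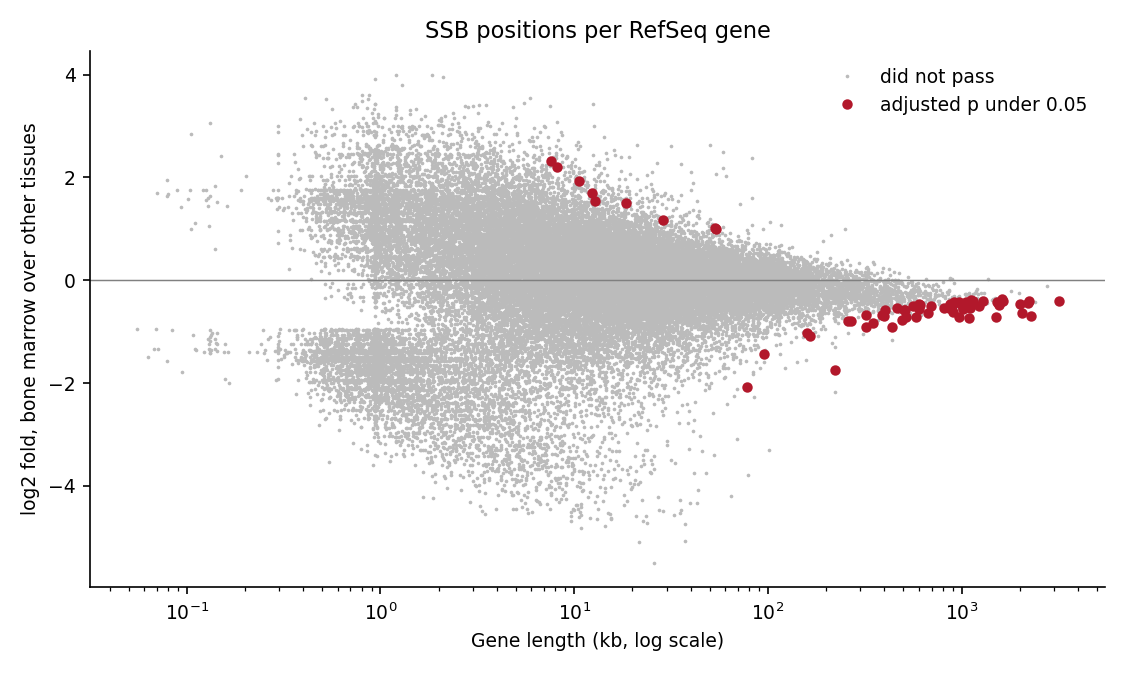
Log2 fold change of SSB positions per RefSeq gene, bone marrow over the mean of the other tissues, against gene length in kb on a log scale. Each point is 1 gene and the 73 red points have an adjusted p under 0.05. The 64 lower genes lie at the right, with a median length of 906400 bp, and the 9 higher ones are no longer than 53992 bp.

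The smallest p was that of Ptprd, a receptor tyrosine phosphatase that organises synapses (chr4:75941237-78211742). Its SSB density was 0.190 and 0.220 LPKM in bone marrow and 0.266 to 0.364 LPKM in the other libraries, with a median of 0.294 LPKM. The ranges did not overlap, and the log2 fold change was −0.70 ± 0.0968 (SE, edgeR adjusted p = 1.85e-08). Ctnna2, the neuronal alpha-catenin (chr6:76881637-77979815), had 0.264 and 0.262 LPKM against 0.357 to 0.510 LPKM, a log2 fold change of −0.73 ± 0.114.

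Other long genes of cell adhesion and signalling followed. Dpp10, an auxiliary subunit of potassium channels, had 0.167 and 0.204 LPKM against 0.246 to 0.313 LPKM. Tenm2, a teneurin, had 0.434 and 0.427 LPKM against 0.516 to 0.642 LPKM, and Cadm2, a cell adhesion molecule, had 0.187 and 0.184 LPKM against 0.240 to 0.361 LPKM. Bone marrow was below all other libraries in each of them.

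Kcnb2, a voltage-gated potassium channel, had 0.205 and 0.291 LPKM against 0.336 to 0.443 LPKM. Robo2, a receptor for Slit guidance cues, had 0.259 and 0.278 LPKM against 0.305 to 0.389 LPKM, and Nrg1, a ligand of ErbB receptors, had 0.330 and 0.297 LPKM against 0.335 to 0.467 LPKM. These also did not overlap with the others. The secreted protein gene Olfm3 had the largest fold change of the 12 lower genes named, −1.74 ± 0.319 on the log2 scale, from 7 and 8 positions in bone marrow.

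In 3 of the 12 the libraries overlapped. Lrp1b, a large receptor of the LDL receptor family, had 0.140 and 0.192 LPKM against 0.178 to 0.285 LPKM. Macrod2, a hydrolase of ADP-ribose, had 0.274 and 0.359 LPKM against 0.305 to 0.487 LPKM. Lsamp, a neuronal adhesion molecule, had 0.289 and 0.341 LPKM against 0.316 to 0.497 LPKM. Of the 64 lower genes 44 had both bone marrow libraries below all others, a pattern found in 1.27% of all genes tested. It was found in 21.6% of protein-coding genes over 500 kb. The 64 were chosen as lower in these same libraries, so the count of 44 is a description.

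The 9 higher genes included Rgl2, Sun2, Fmnl3, Cant1, Rnf123, Klc2, Ubxn6 and Ccdc142, and in each of the 9 both bone marrow libraries lay above all others, as in 3.23% of all genes tested. They were chosen as higher in these same libraries, so this too is a description. Rgl2, an exchange factor for the small GTPase Ral, had 5.07 and 5.18 LPKM against 0 to 2.11 LPKM, from 19 and 10 positions (log2 2.20 ± 0.412). Sun2, a protein of the inner nuclear membrane that links it to the cytoskeleton, had 2.72 and 2.52 LPKM against 0.389 to 1.21 LPKM. Fmnl3, a formin that builds actin filaments, had 1.799 and 1.51 LPKM against 0.500 to 1.05 LPKM.

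Rnf123, a ubiquitin ligase, had 2.20 and 2.22 LPKM against 0.456 to 1.35 LPKM. Klc2, a kinesin light chain, had 2.89 and 2.81 LPKM against 0.262 to 1.49 LPKM. Cant1, a calcium-activated nucleotidase, had 3.73 and 2.97 LPKM against 0.559 to 1.69 LPKM. In Rgl2, Sun2, Fmnl3 and Rnf123 most of the bone marrow positions inside the gene lay away from the annotated start. The gene spans held 29, 34, 63 and 44 positions. Within 1 kb on either side of the start, so partly outside the gene, lay 7, 4, 2 and 6. These 4 genes still passed with positions near 5' ends left out. DESeq2 gave no adjusted p for any of the 9.

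These gene calls were fragile. DESeq2 called 8 genes, all lower, and 670 at an unadjusted p under 0.05. Without the first bone marrow library 0 genes passed and without the second 21. Leaving out brain replicate 2, heart replicate 1, heart replicate 2, liver replicate 1 or sperm replicate 1 left 15, 16, 39, 14 and 14 calls. The 9 higher calls became 15 without PBMC replicate 1 and 4 without sperm replicate 1. Without both sperm libraries 6 genes passed. For windows DESeq2 called 27, all higher, and 1 passed without the first bone marrow library, which holds most of the bone marrow positions.

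Lists of genes were set against the median log2 fold change of 0.04 over all genes, of which 51.9% were above 0. The long genes of common fragile sites, regions that break when replication is slowed, stood lowest, with a median of −0.40. All 23 were below 0 and 8 passed as lower: Ctnna2, Lrp1b, Macrod2, Lsamp, Csmd1, Ctnna3, Cntnap2 and Dab1. Of all genes tested 0.166% passed as lower, but of the 227 protein-coding genes over 500 kb 47 did. Summed over the list there were 9118 and 9839 PPM in bone marrow against 10670 to 12490 in the others. Without TMM the median was −0.27, Ctnna2 and Lrp1b still passed, and the other 6 did not (edgeR adjusted p = 0.0758 to 0.307). This list has a median gene length of 1346000 bp, and all protein-coding genes over 500 kb had a median of −0.35.

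No member of the neutrophil, megakaryocyte and erythroid lists passed singly. Neutrophil granule and myeloid genes had a median of 0.73, with 21 of 24 above 0, and together 283 and 250 PPM in bone marrow against 131 to 202 in the others. Megakaryocyte genes had a median of 0.73, with 13 of 15 above 0, and 449 and 428 PPM against 298 to 398. Erythroid genes had a median of 0.47, with 15 of 22 above 0, and 722 and 750 PPM against 549 to 639. In these 3 lists the summed positions of both bone marrow libraries exceeded all other libraries, and 0, 2 and 2 members did so singly, where 3.23% of all genes did. Their median lengths were 4300, 7786 and 18500 bp, and all protein-coding genes under 10 kb had a median of 0.32, and those of 10 to 50 kb 0.11, so short genes in general were on the same side. Summed positions of both bone marrow libraries also exceeded all others in lists that are not of blood lineages. Immediate early genes had 257.3 and 266.9 PPM against at most 224, and DNA replication genes 455.7 and 491.5 against at most 416.7. Single-strand break repair genes had 433.9 and 406.8 against at most 398.8.

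Counts behind single marker genes were small. Mpo, the myeloperoxidase of neutrophil granules, chosen after its values were seen, had 8 and 4 positions in bone marrow and at most 12 in another library, and did not pass (log2 1.79 ± 0.663, edgeR adjusted p = 0.427). Spi1, the PU.1 transcription factor, had 1.63 and 1.02 LPKM against 0.399 to 1.10 LPKM, and Csf1r, the receptor of macrophage colony-stimulating factor, had 1.28 and 0.994 LPKM against 0.256 to 1.41 LPKM. Sptb, the beta-spectrin of red cells, had 1.02 and 1.30 LPKM against 0.528 to 0.991 LPKM without passing (adjusted p = 0.487). Ank1, which anchors spectrin to the red cell membrane, had 0.931 and 0.868 LPKM against 0.607 to 0.968 LPKM. Fli1, a megakaryocyte transcription factor, had 0.917 and 1.12 LPKM against 0.647 to 0.859 LPKM, and Vwf, von Willebrand factor, had 0.995 and 0.665 LPKM against 0.510 to 1.12 LPKM.

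Stem and progenitor genes had a median of 0.08, with 11 of 21 above 0. In this list Mecom, a transcription factor of blood stem cells and 558464 bp long, was lower in bone marrow, with 0.445 and 0.493 LPKM against 0.522 to 0.707 LPKM (log2 −0.51 ± 0.121, edgeR adjusted p = 0.024). It did not pass without TMM (adjusted p = 0.234), with DESeq2 (adjusted p = 0.162) or without positions near 5' ends (edgeR adjusted p = 0.192). Etv6 had 0.930 and 0.795 LPKM against 0.669 to 0.795 LPKM and did not pass. B cell genes had a median of 0.04, with Foxp1 at 0.657 and 0.695 LPKM against 0.662 to 0.805 LPKM and Ebf1 at 0.609 and 0.641 LPKM against 0.529 to 0.787 LPKM. T and NK cell genes had a median of −0.03, with Skap1 at 0.599 and 0.689 LPKM against 0.450 to 0.768 LPKM and Bcl11b at 1.05 and 1.09 LPKM against 0.698 to 1.21 LPKM. In Foxp1, Ebf1, Skap1 and Bcl11b the bone marrow libraries overlapped with the rest.

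Antigen receptor loci, which developing lymphocytes cut and rejoin, were represented by 7 loci with a median of −0.12, which changed sign to 0.01 without TMM. Igk was lower in bone marrow at 0.146 and 0.136 LPKM against 0.140 to 0.206 LPKM (log2 −0.40 ± 0.0988, edgeR adjusted p = 0.0293), but the ranges overlapped and it did not pass without TMM. Igh had 0.235 and 0.231 LPKM against 0.192 to 0.254 LPKM.

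Genes of the other tissues were near the median of all genes. Neuronal and glial genes had a median of −0.01, hepatocyte genes −0.14, cardiac muscle genes −0.03 and sperm genes −0.08, and without TMM all but the hepatocyte genes turned above 0. Syt1, the calcium sensor of synaptic vesicles, was the only member to pass, at 0.353 and 0.413 LPKM against 0.407 to 0.649 LPKM (log2 −0.58), and it did not pass without TMM (edgeR adjusted p = 0.204) or with DESeq2 (adjusted p = 0.197). Rbfox3, a neuronal splicing factor, had 1.19 and 1.17 LPKM against 0.815 to 1.07 LPKM without passing. Cps1, a urea cycle enzyme of liver, had 0.280 and 0.428 LPKM against 0.441 to 0.762 LPKM and Hnf4a had 1.06 and 0.641 LPKM against 0.471 to 1.18 LPKM. Of the cardiac genes Cacna1c had 0.725 and 0.632 LPKM against 0.606 to 0.809 LPKM and Ryr2 had 0.417 and 0.497 LPKM against 0.430 to 0.570 LPKM. The sperm genes Dnah8 and Spata16 had 0.570 and 0.511 LPKM against 0.356 to 0.554 LPKM, and 0.278 and 0.307 LPKM against 0.216 to 0.333 LPKM.

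The lists were described at their 5' ends as well. Both bone marrow libraries lay above all others in 2 of the 15 lists with mapped 5' ends, the ribosomal protein genes and the sperm genes. Around the starts of 24 cytosolic ribosomal protein genes there were 113 and 84.8 PPM in bone marrow against 16.4 to 78.4 in the others. Around those of 15 sperm genes there were 28.3 and 25.4 against 9.81 to 25.0, from only 13 and 6 positions. Neutrophil and myeloid genes overlapped with the others at 58.9 and 42.4 against 14.4 to 44.3, or 1.68 times their mean. Erythroid genes were at 1.40 times, megakaryocyte genes at 1.37 times, stem and progenitor genes at 1.06 times, T and NK cell genes at 0.930 times and B cell genes at 0.858 times the mean of the others, all overlapping. Neuronal and glial genes, hepatocyte genes and cardiac muscle genes, at 1.34, 1.13 and 0.980 times, also overlapped. DNA replication genes had 93.8 and 72.0 against 29.4 to 73.9, and single-strand break repair genes 80.7 and 59.3 against 18.7 to 65.02, both overlapping with the others. Over whole genes the medians of these lists were 0.83 for ribosomal protein genes, 0.32 for DNA replication genes, 0.25 for repair genes and 0.24 for immediate early genes, and no member passed. All genes with a 5' end combined were at 1.47 times the mean of the others.

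The most covered members of these lists overlapped with the other tissues, except Nr4a1. Tdp1, which removes stalled topoisomerase 1 from DNA ends, had 0.833 and 1.08 LPKM against 0.462 to 0.905 LPKM, and Parg, which degrades poly(ADP-ribose), had 0.406 and 0.438 LPKM against 0.230 to 0.509 LPKM. Pola1, a subunit of DNA polymerase alpha, had 0.166 and 0.207 LPKM against 0.106 to 0.212 LPKM, and Rfc1 of the clamp loader had 0.653 and 0.497 LPKM against 0.174 to 0.511 LPKM. Rpl3 had 3.10 and 0.753 LPKM against 0 to 2.33 LPKM and Rpl18 had 1.62 and 0.789 LPKM against 0 to 2.51 LPKM. Of the immediate early genes, Nr4a1 had 1.67 and 1.83 LPKM against 0.344 to 1.61 LPKM, and Nr4a3 had 0.843 and 0.922 LPKM against 0.379 to 1.13 LPKM, without passing.

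Whole chromosomes were compared by their share of positions, as a description with no test of gene content. Both bone marrow libraries were above all others on 4 of 21 chromosomes and below all others on 7. Chromosome 11, with 13.2 protein-coding genes per Mb, held 6.60% and 6.34% of bone marrow SSBs against 5.71% to 6.06%. Chromosome 17, with 11.2 genes per Mb, held 4.39% and 4.27% against 3.82% to 4.09%, and chromosome 7, with 14.0 genes per Mb, held 6.19% and 6.17% against 5.69% to 6.07%. The fourth above all others was chromosome 5, with 8.36 genes per Mb and 6.28% and 6.29% against 5.95% to 6.26%, while the denser chromosomes 2, 4 and 9 overlapped with the others. Of those below, chromosome 3, with 6.15 genes per Mb, held 5.08% and 5.24% against 5.44% to 5.70%. Chromosome 19 is also gene-dense at 11.5 genes per Mb, but at 2.82% and 2.70% its second bone marrow library fell inside the range of 2.46% to 2.75%. Chromosomes 18 and X, at 5.64 and 5.65 genes per Mb, were not below all others.

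The excess in genes was not made up of positions at 5' ends alone. When all positions within 1 kb of a 5' end were left out, a check added after the data were seen, the gene-dense windows still held 4.81% and 4.40% in bone marrow against 3.43% to 3.93%, or 1.23 times the mean of the others. Gene-free windows held 7.74% and 8.44% against 9.05% to 10.2%. All 7 remaining measures that had passed did so again (exact p = 0.0152, adjusted p = 0.0216 for each). The number of windows that passed fell from 310 to 195 and the number of genes from 73 to 12. The fold changes moved little: the median log2 went from −0.53 to −0.46 in the 64 lower genes and from 1.54 to 1.55 in the 9 higher ones.

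AP sites of the same DNA samples did not separate bone marrow in the tests. At gene 5' ends lay 2.63% and 2.50% of bone marrow AP sites against 2.02% to 2.53% in the others (exact p = 0.0909, adjusted p = 0.148). Gene-dense windows held 4.69% and 4.36% against 3.63% to 4.42%, and gene-free windows 8.04% and 8.47% against 8.38% to 10.0% (adjusted p = 0.148 for both). Genes over 500 kb held 7.29% and 7.59% against 7.63% to 8.40%, the only measure with an unadjusted exact p under 0.05 (p = 0.0303, adjusted p = 0.148). The values were thus on the same side as for SSBs, at 1.11 times the mean of the others for 5' ends where SSBs had 1.46 times. With edgeR 0 of 41374 genes and 0 of 24695 windows passed for AP sites, with 1819 and 1336 at an unadjusted p under 0.05. No AP site class of promoter passed either: CpG-rich promoters had 0.987 and 0.874 LPKM against 0.561 to 0.909 LPKM (adjusted p = 0.444).

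Whether the bone marrow shift was larger for SSBs than for AP sites was tested within samples. The log2 ratio of the SSB share to the AP share at gene 5' ends was 0.79 and 0.66 in bone marrow and −0.05 to 0.68 in the other samples. The difference of the means, 0.39, had an exact p of 0.0758 and an adjusted p of 0.204, so it did not pass. The smallest exact p over the 11 ratios was 0.0758, and none passed.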

How the data were processed

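SSB and AP positions were mapped by the authors with their own methods, termed SSiNGLe for SSBs. Per the labels and the values, the deposited lists gave 1 nucleotide position per line with its strand and a raw count, without normalization and without pooling of replicates, on mm10 (GRCm38), the build named in the submitters' processing notes. The aligner and filters are not given in the sources used here. Of the 36 samples, the 24 SSB and AP libraries were used.

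Each position was counted once, on either strand, over 49943 RefSeq genes (GRCm38.p6) and 27236 windows of 100 kb on chromosomes 1 to 19, X and Y. The annotation gave gene spans but no exons, so whole genes were used, and a position in overlapping genes was counted for each. A strand, needed to place 5' and 3' ends, was known for 17492 of 21887 protein-coding genes (79.9%). Gene starts per window were counted for all 21887 at the lower coordinate of the gene, without regard to strand. LPKM was positions per kb per 1000000 positions of the library. CpG-rich promoters had an observed over expected CpG ratio of at least 0.75 and at least 55% G and C, CpG-poor ones a ratio under 0.48.

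Genes with a position in at least 20% of the libraries and windows with a mean of at least 5 positions were tested with edgeR 4.0.16 in R 4.3.3 (quasi-likelihood test, 6 tissues in 1 fit, contrast of bone marrow against the unweighted mean of the 5 others, TMM with all positions as library size, Benjamini-Hochberg, threshold 0.05). 5' ends of genes were tested without TMM. Shares were compared with an exact two-sided permutation test on mean log2 share, and p-values were adjusted over the 11 measures of each family. Multiples of the mean of the others were taken on the log2 scale for shares. For promoter classes and the 5' ends of lists they were ratios of plain means. Per-gene scripts were tested on simulated data. DESeq2 1.42.0 and the other settings of the closing section were alternatives. Python 3.11.15 with numpy 2.4.6, pandas 2.3.3 and matplotlib 3.10.9 was used for the rest.

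Genes named were, in each direction, up to 12 that passed with the smallest p, and of each list the members that passed and the 2 with the most positions. Windows named were up to 8 in each direction. Of the genes so chosen, 1 is not reported here. Members and lists were chosen with earlier results of these data known. The 5' end profile, promoter classes, base content, the test of single 5' ends and the omission of positions near 5' ends were added after the data were seen. With 2 mice per tissue, SDs measure the spread between these samples. The exact p ranks bone marrow among choices of libraries, whatever their tissue. The edgeR p rests on the spread within tissues, pooled over all of them.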

Additional observations from a re-analysis of the deposited data

How the results depend on the processing

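Leaving out a bone marrow library kept the direction of all 8 shares that had passed, but with 1 library the smallest exact p is 0.0909. The log2 differences then ranged from 0.0378 to 0.0589 for RefSeq genes, 0.0495 to 0.0735 for protein-coding genes, 0.437 to 0.645 for 5' ends, 0.170 to 0.216 for 3' ends, 0.285 to 0.405 for gene-dense and −0.314 to −0.176 for gene-free windows, 0.160 to 0.254 for genes under 10 kb and −0.227 to −0.160 for those over 500 kb. Without PBMCs the 5' end difference was 0.490 and no longer passed (exact p = 0.0444, adjusted p = 0.0611). Without sperm, the differences for chromosome X (−0.135) and chromosome Y (−0.462) passed. In every other setting run, which were summed counts, autosomes only, recurrent positions or the densest windows left out, other end widths and density thresholds, and each other library left out, the 8 shares kept their side.

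Counts of calls moved more. Genes called were 73 (64 lower, 9 higher) and became 29 (8, 21) without TMM, 8 (8, 0) with DESeq2, 9 (7, 2) in a 2-group fit, 3 (3, 0) at equal depth, 6 (5, 1) without sperm, 14 with summed counts (8 lower), 11 (8, 3) without recurrent positions and 12 (8, 4) without positions near 5' ends. Without PBMCs 100 were lower and 5 higher, with RLE size factors 17 were higher, and among protein-coding genes only 25 were higher. Windows called were 310 (18 lower, 292 higher) and became 172 without TMM (153 higher), 27 with DESeq2 (0 lower, 27 higher), 103 (8, 95) in a 2-group fit, 34 (3, 31) at equal depth, 128 (7, 121) without sperm and 195 (11, 184) without positions near 5' ends. The cause was not tested. Each library left out in turn gave 0 to 96 genes (0 to 81 lower, 0 to 15 higher) and 1 to 323 windows (0 to 19 lower, 1 to 304 higher). Named genes and windows reversed in no setting.

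Same-numbered libraries did not deviate together: over 15 pairs of tissues the correlation of same-numbered deviations was −0.0153 to 0.00862, and 6 of 12 libraries correlated best with their own number. Few positions per window limit such correlations, so this check cannot tell whether tissues came from the same mice. With a replicate block 68 genes and 264 windows passed, and the 5' end share had an exact p of 0.0278, the smallest possible there, with an adjusted p of 0.0382. Depth limits the precision of short genes, which hold few positions per library, as Mpo with 8 and 4 in bone marrow.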
